A study of Rattus norvegicus with 8 samples.

Results

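The genes described here are linked to pre-mRNA splicing and its control by phosphorylation: the CDC-like kinases Clk1, Clk2, Clk3 and Clk4, the SR-like splicing factors Tra2a, Tra2b, Luc7l3 and Arglu1, and the cyclins Ccnl1 and Ccnl2. Members were taken by gene symbol from the annotation of the array, and all 10 were found, of 10411 genes on the array, on 11 of the 15866 probe sets that are not controls (Tra2b has 2). The genes were selected on the difference in signal between these cadmium and control arrays, so that difference is not independent of the choice. Their differences between cadmium and control are given as a description, and nothing is read from the counts that passed the test.

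Cadmium cultures were primary rat hepatocytes kept with cadmium chloride at 4 µM for 3 h, and control cultures were hepatocytes of the same rats kept in medium alone. The 4 cadmium and 4 control RNA samples came from 4 rats, 1 culture of each kind from every rat, and each was read on 1 Affymetrix RAE230A array. Cell viability was over 85%, and 8 µg of RNA was used per sample. The sources used here name no strain, sex, age or genotype. The series was titled as a study of early expression changes after a small dose of cadmium.

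CLK kinases phosphorylate the arginine and serine repeats of SR proteins, which moves these splicing factors out of nuclear storage speckles and changes their binding to pre-mRNA. In mouse and human cells, part of the Clk1 and Clk4 RNA is held in the nucleus with introns retained. It is spliced to messenger RNA when cells are stressed. The array signals given here do not tell these forms of RNA apart. Cyclins L1 and L2 carry a similar repeat domain, sit in the same speckles and activate CDK11 kinases. All these proteins are made in most cell types, and none is a marker of hepatocytes.

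The trimmed mean signal was the same on all arrays, between 500.1 and 500.2, but the medians of cadmium and control arrays did not overlap. The median signal lay between 180 and 186.4 on cadmium arrays and between 192.2 and 197.2 on control arrays. The exact two-sided permutation p was 0.0286 over 70 assignments, the smallest they allow. The permutations in this paragraph moved arrays freely between groups and did not keep both arrays of a rat as a pair. Ratios of 3′ to 5′ signal, a measure of RNA integrity, lay between 0.972 and 1.115 on cadmium arrays and between 0.958 and 1.061 on control arrays for Gapdh (exact permutation p = 0.286). For beta-actin they were higher, between 1.43 and 1.634 on cadmium arrays and between 1.377 and 1.786 on control arrays (exact permutation p = 0.8). Hepatocyte markers summed to signals between 93020 and 105774 on cadmium arrays and between 88457 and 102046 on control arrays, with 7 of 8 listed markers on the array and Alb the brightest. The 4 endothelial and 3 lymphocyte markers on the array were all too dim to be tested. Of the macrophage markers, led by Cd68, 3 of 4 were tested and Clec4f was too dim. They summed to 1372 to 3624 with cadmium and 1486 to 3178 in controls. Of the stellate cell markers, Acta2 and Col1a1 were tested (2 of 6), and Des, Col1a2, Lrat and Pdgfrb were too dim. They summed to 721 to 855 with cadmium and 671 to 875 in controls. Of the bile duct markers, Epcam was tested (1 of 3), and Krt7 and Krt19 were too dim. They summed to 1103 to 2591 with cadmium and 1717 to 2704 in controls. The presence of these cell types is not inferred from the markers. No marker passed the test between cadmium and control. In such bulk samples, fewer cells of a type and less RNA per cell cannot be told apart. All control arrays ran on 1 module of the fluidics station and all cadmium arrays on the other, so module and treatment cannot be told apart.

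The members split in direction. Clk1, Tra2b and Ccnl1 rose after cadmium, Luc7l3 and Arglu1 fell, Clk4 was higher and Clk2 and Ccnl2 were lower in each rat without passing, and Clk3 and Tra2a went different ways in different rats. In the limma fit over all 9519 tested probe sets, at a Benjamini-Hochberg adjusted p under 0.05, 4 of 11 member probe sets (3 genes) were higher, against 2.1% of all tested probe sets, and 2 of 11 were lower, against 1.43%. With the rat as a replicate block, 5 were higher, against 2.86% of all, and 3 were lower, against 2.29%; the additional calls were Clk4 (higher) and Ccnl2 (lower). Over all tested probe sets 200 were higher and 136 lower, against 206 and 89 after quantile normalization and 252 and 74 after median centring. The median log2 change over the 11 member probe sets was 0.11, and that over all tested probe sets was -0.06. All 11 lay above the filter on dim probe sets, a mean signal of 118.

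**Figure D1:**
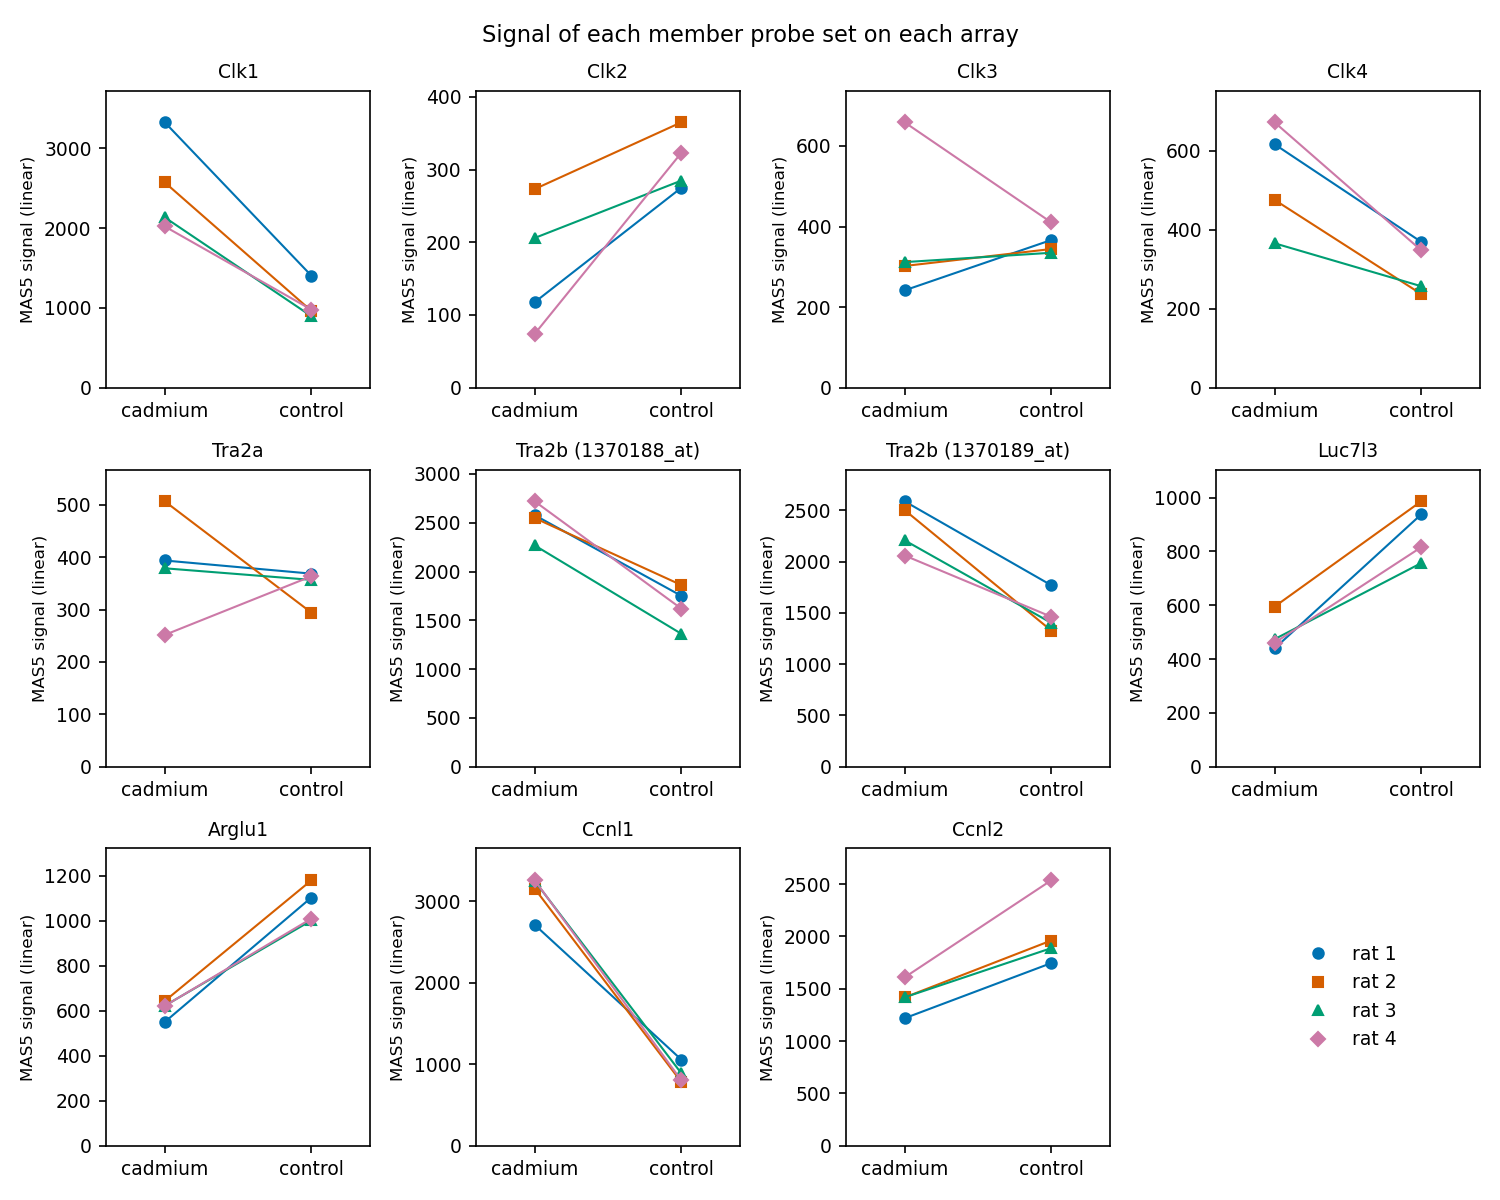
Linear MAS5 signal of the 11 member probe sets on the 4 cadmium arrays (left in each panel) and the 4 control arrays (right), with a line joining both cultures of a rat. The lines of Clk1, Clk4, Tra2b and Ccnl1 are higher with cadmium in each rat, those of Clk2, Luc7l3, Arglu1 and Ccnl2 are lower in each rat, and those of Clk3 and Tra2a cross.

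Among the kinases, Clk1, which phosphorylates SR proteins and has the best studied regulated introns of the family, had signals of 3327.2, 2573.8, 2134.8 and 2021.6 on the cadmium arrays of rats 1 to 4, against 1405.0, 963.3, 896.8 and 979.2 on the control arrays of the same rats (probe set 1399022_at). Every cadmium array lay above every control array, and rat 1 was the highest in both groups. The means were 2514 ± 592 with cadmium and 1061 ± 232 in controls (SD, n = 4 each), a log2 change of 1.24 ± 0.18 (SE) or 2.36-fold. The change within a rat was even, from 1.05 to 1.42. Its call ended when both arrays of rat 2 were left out (log2 change 1.18). It also ended within chip lot 1, which holds rats 3 and 4 (1.15), but not within lot 2, which holds rats 1 and 2 (1.33). Fits with fewer arrays, here and below, had no rat term and so ignored the pairing. With the rat as a replicate block over all arrays, Clk1 kept its call.

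Clk4, the close paralogue of Clk1, had signals of 616.0, 475.2, 365.4 and 671.5 with cadmium, against 369.1, 237.1, 256.8 and 347.8 in controls (1399141_at). It was higher in 4 of 4 rats, but the groups overlapped, since the cadmium culture of rat 3 lay just below the control culture of rat 1. The means were 532 ± 138 with cadmium and 302.7 ± 65.5 in controls, a log2 change of 0.80 ± 0.21. Clk4 did not pass, and it did so with the rat as a replicate block or without cadmium replicate 3 (log2 change 0.97). Within lots the change was 0.73 (lot 1) and 0.87 (lot 2).

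Clk2, another SR protein kinase, went the other way and was the dimmest member. Its signals were 117.6, 273.3, 206.0 and 74.1 with cadmium, against 275.0, 365.1, 284.9 and 323.0 in controls (1373425_at). The groups did not overlap, though the cadmium culture of rat 2 and the control culture of rat 1 were nearly level. The log2 change was -1.05 ± 0.34, with single rats from -0.42 to -2.11, and it did not pass in any fit run. Without rat 4 the change was -0.70.

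Clk3, the fourth kinase, had signals of 241.6, 302.1, 311.7 and 658.7 with cadmium, against 366.5, 344.2, 334.9 and 410.4 in controls (1368235_at). It was lower in rats 1 to 3 and higher in rat 4, whose cadmium array stood apart from the other cadmium arrays. The log2 change was -0.05 ± 0.26 and did not pass. It was -0.36 without that array, 0.29 within lot 1 and -0.39 within lot 2, and it turned positive, to 0.02 and 0.03, after quantile normalization and median centring. Set side by side within each rat, the change of Clk1 exceeded that of Clk2 by 2.46, 1.83, 1.72 and 3.15 log2 units in rats 1 to 4, and that of Clk4 by 0.51, 0.42, 0.74 and 0.10.

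Of the SR-like factors, Tra2b, a homologue of the fly sex determination factor transformer 2 that binds purine-rich exonic enhancers, rose on both of its probe sets. Probe set 1370188_at had signals of 2577.8, 2548.1, 2267.7 and 2719.6 with cadmium, against 1751.3, 1862.0, 1362.5 and 1620.2 in controls. Probe set 1370189_at had 2587.4, 2502.0, 2207.1 and 2059.1 with cadmium, against 1769.7, 1327.6, 1402.5 and 1462.2 in controls. On each of them every cadmium array lay above every control array. The log2 changes were 0.62 ± 0.12 and 0.65 ± 0.12, a 1.54-fold and a 1.57-fold difference. Both probe sets derive from the same database sequence and are not independent readings. Both calls ended without cadmium replicate 2 (log2 changes 0.62 and 0.62) or without rat 2 (0.68 and 0.57), that of 1370188_at also without rat 1 (0.64) or rat 4 (0.58), and that of 1370189_at without control replicate 2 (0.60), control replicate 3 (0.63) or rat 3 (0.65). Within lot 1 the changes were 0.74 and 0.57 and within lot 2 0.50 and 0.73, none past the threshold.

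Tra2a, the paralogue with the same type of RNA-binding domain, had signals of 393.8, 506.8, 378.9 and 251.7 with cadmium, against 368.7, 294.3, 356.8 and 363.6 in controls (1390278_at). It was higher in rats 1 to 3 and lower in rat 4, and the groups overlapped. The log2 change was 0.11 ± 0.19 and did not pass. It was -0.12 without rat 2, -0.04 without cadmium replicate 2, -0.22 within lot 1 and 0.44 within lot 2. The difference between the changes of Tra2b (1370188_at) and Tra2a ranged from -0.33 in rat 2 to 1.28 in rat 4.

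Luc7l3, a relative of the yeast U1 snRNP protein Luc7 that acts at 5′ splice sites, had signals of 439.8, 595.0, 474.0 and 460.6 with cadmium, against 937.6, 986.4, 756.6 and 815.6 in controls (1399018_at). Every cadmium array lay below every control array. The means were 492.4 ± 69.9 with cadmium and 874 ± 106 in controls, a log2 change of -0.83 ± 0.13, or 1.78-fold lower with cadmium. The call ended without rat 1 (log2 change -0.74), within lot 1 (-0.75) and within lot 2 (-0.91).

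Arglu1, a protein rich in arginine and glutamate that modulates splicing and nuclear receptor activity, had signals of 549.8, 643.2, 622.2 and 621.4 with cadmium, against 1103.0, 1179.5, 1001.1 and 1009.2 in controls (1372522_at). The groups were far apart and tight, with coefficients of variation of 6.70% with cadmium and 7.89% in controls. The log2 change was -0.82 ± 0.11, or 1.76-fold lower with cadmium, and single rats lay between -0.69 and -1.003. The call ended within lot 1 (-0.69) and held within lot 2 (-0.94). Luc7l3 and Arglu1 thus changed by similar amounts in the direction opposite to that of Tra2b.

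The cyclins held the largest change of any member. Ccnl1, cyclin L1, also known in rat brain as the early response gene Ania-6a, had signals of 2710.8, 3154.9, 3248.8 and 3257.0 with cadmium, against 1057.0, 782.5, 889.7 and 803.6 in controls (1368050_at). The lowest cadmium array was far above the highest control array. The means were 3093 ± 259 with cadmium and 883 ± 125 in controls, a log2 change of 1.81 ± 0.12 or 3.51-fold, the rank 37 from the top among 9519 tested probe sets. Within rats 1 to 4 the change was 1.36, 2.01, 1.87 and 2.02. Ccnl1 passed in each of the 22 alternative fits that were run, with log2 changes from 1.68 to 1.97, and it was the only member called within both chip lots (1.94 in lot 1 and 1.68 in lot 2).

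Ccnl2, cyclin L2, which shares the cyclin fold and the repeat domain of cyclin L1, had signals of 1217.6, 1416.4, 1417.6 and 1608.4 with cadmium, against 1744.2, 1960.1, 1887.0 and 2535.2 in controls (1389564_at). No cadmium array reached the lowest control array. The log2 change was -0.51 ± 0.13, from -0.41 to -0.66 within rats. It did not pass, while it did so with the rat or the chip lot as a block, and it was -0.53 within lot 1 and -0.49 within lot 2. The changes of the paralogues Ccnl1 and Ccnl2 lay 1.88, 2.48, 2.28 and 2.67 log2 units apart in rats 1 to 4.

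**Figure D2:**
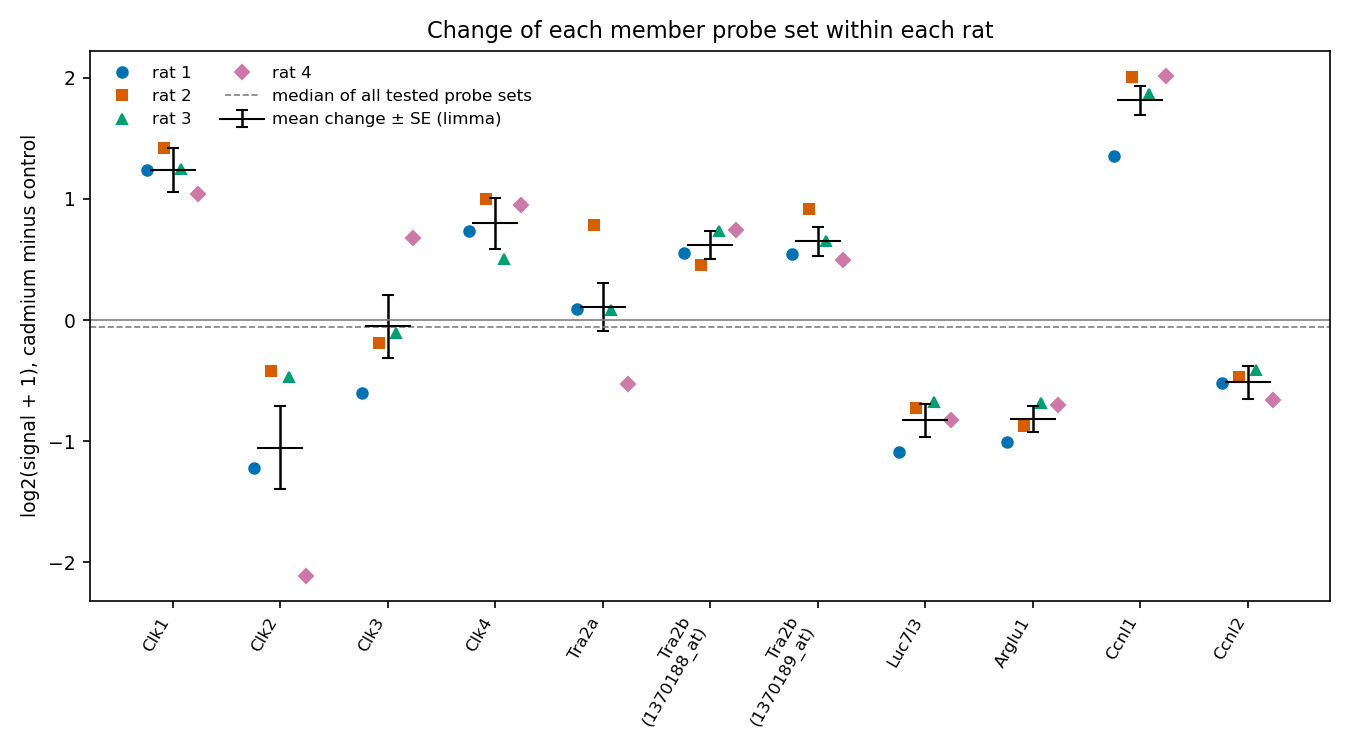
Difference of log2(signal + 1) between the cadmium and the control culture of each rat for the 11 member probe sets (coloured symbols, 1 per rat), with the mean and its standard error from limma in black. The dashed line is the median of all tested probe sets, -0.06. Ccnl1 and Clk1 lie highest, and the symbols of Clk2, Clk3 and Tra2a spread most between rats.

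Counted without a test, 4 of 11 member probe sets had every cadmium array above every control array, against 4.33% of all tested probe sets, and 4 of 11 had every cadmium array below, against 7.22%. The first 4 were Clk1, Ccnl1 and both probe sets of Tra2b, and the others were Clk2, Luc7l3, Arglu1 and Ccnl2.

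The regions just before the starts of Ccnl1, Clk4, Clk1 and Tra2b, the genes higher in 4 of 4 rats on every probe set, are shown with the motif matches that a search found in them. They were read from RefSeq on the rat assembly GRCr8, the 250 bases before the annotated start, 5′ to 3′ along the gene. Capitals mark the cAMP response element TGACGTCA and its 5-base core TGACG on either strand (CGTCA), the core lying inside each full element. Clk4 has 2 windows in the table. The downstream window is shown because it holds matches, and the upstream window holds neither the full element nor the core. The coordinates are chr2:152507469-152507718 (minus strand) for Ccnl1, chr10:36025490-36025739 (plus strand) for Clk4, chr9:67453181-67453430 (minus strand) for Clk1 and chr11:92293192-92293441 (plus strand) for Tra2b.
Ccnl1: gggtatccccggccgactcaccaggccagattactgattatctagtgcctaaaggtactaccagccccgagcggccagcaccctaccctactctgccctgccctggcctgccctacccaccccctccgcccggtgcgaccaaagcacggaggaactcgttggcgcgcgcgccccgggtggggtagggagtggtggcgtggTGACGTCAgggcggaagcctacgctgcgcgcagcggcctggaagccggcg
Clk4: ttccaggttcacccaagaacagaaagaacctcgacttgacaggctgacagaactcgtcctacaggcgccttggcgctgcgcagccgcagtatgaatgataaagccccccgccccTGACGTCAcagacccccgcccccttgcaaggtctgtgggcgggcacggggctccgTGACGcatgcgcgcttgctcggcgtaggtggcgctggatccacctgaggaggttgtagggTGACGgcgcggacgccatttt
Clk1: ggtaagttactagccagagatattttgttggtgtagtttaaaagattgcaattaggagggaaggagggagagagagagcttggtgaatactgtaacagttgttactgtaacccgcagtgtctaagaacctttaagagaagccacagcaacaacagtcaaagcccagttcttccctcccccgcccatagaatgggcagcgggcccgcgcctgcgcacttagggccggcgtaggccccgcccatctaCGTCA
Tra2b: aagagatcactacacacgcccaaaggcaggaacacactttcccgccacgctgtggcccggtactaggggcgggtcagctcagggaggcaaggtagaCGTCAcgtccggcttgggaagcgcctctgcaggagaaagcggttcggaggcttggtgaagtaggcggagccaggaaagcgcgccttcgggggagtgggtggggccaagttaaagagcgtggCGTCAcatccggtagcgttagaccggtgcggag

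A full TGACGTCA was present before Ccnl1, at bases 50 to 43 before the start, and in the downstream window of Clk4, at bases 136 to 129. Counting a gene once if any of its windows holds the letters, it occurred in 2 of the 9 member genes with a window (Tra2a is not among them) and in 1.78% of all 27457 genes (1.59% of their 33469 windows). The core TGACG, which was searched after the full element had been seen, was present in 6 of 9 genes (Clk1, Clk2, Clk4, Tra2b, Ccnl1 and Ccnl2) and in 20.0% of all genes. It was found before each of Clk1, Clk4, Tra2b and Ccnl1, which had higher signals in 4 of 4 rats, and, of the genes with lower signals in 4 of 4 rats, before Clk2 and Ccnl2 but not before Luc7l3 and Arglu1. The difference between these tallies was not tested.

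Motifs of other stress factors were searched on both strands in the same windows and counted per gene. The heat shock motif GAANNTTC was in 0 of 9 member genes and 7.71% of all genes, and TTCNNGAA was in 1 of 9 (Clk2) and 7.93%. The metal response core, TGCACNC or TGCGCNC, was in 4 of 9 (Clk1, Clk4, Luc7l3 and Ccnl1) and 22.5% of all genes. The antioxidant motif TGACNNNGC was in 2 of 9 (Clk4 and Luc7l3) and 11% of all genes, the AP-1 motif TGANTCA in 1 of 9 (the upstream window of Clk4) and 6.99%, the EGR motif GCGNGGGCG in 0 of 9 and 4.79%, and CCAAT in 3 of 9 and 36.1%. A match is a description of letters and no evidence of binding, and a missing match says only that these letters are not in the window. Member windows had a GC content from 42.0% (the upstream window of Clk4) to 68.8% (Ccnl1), against a median of 51.2% over all windows. Only the upstream window of Clk4 lay below that median. All member windows except that one and those of Clk1 and Arglu1 lay above the upper quartile of all windows. The shares of all genes given for each motif were not matched for GC content, and its part in the motif tallies was not tested.

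Differences between rats were not used in choosing the members and were therefore tested, with the moderated F test of limma and treatment as a term. Both arrays of a rat shared a chip lot and a scan day of their own. Differences between rats therefore cannot be told apart from differences between scan days. Of the 11 member probe sets, 0 passed after adjustment over all tested probe sets, against 1.75% of all, and 3 of 11 had an unadjusted p under 0.05, against 15.7% of all. Those were Clk1 (adjusted p = 0.0891), Clk4 (adjusted p = 0.171) and Ccnl2 (adjusted p = 0.236). The mean log2 levels of Clk1 over both cultures of a rat were 11.08, 10.62, 10.44 and 10.46 in rats 1 to 4, and its adjusted p in the limma F test was 0.0199 without rat 4 and 0.737 without rat 1, the rat with the highest level. The mean over both cultures of a rat varied least for Ccnl1, with a range of 0.11 log2 units between the highest and the lowest rat. It varied most for Clk2, with 1.02. The small range of Ccnl1 does not mean even single arrays, since the cultures of a rat could deviate in opposite directions. In rat 1 its deviations from the group mean were -0.19 with cadmium and 0.27 in the control. Cadmium replicate 4, which read lowest of the cadmium arrays for Clk2 and Tra2a and highest for Clk3, also had the widest spread around its group over all tested probe sets (SD 0.33 log2 units, against 0.24 to 0.29 on the other cadmium and control arrays).

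**Figure D3:**
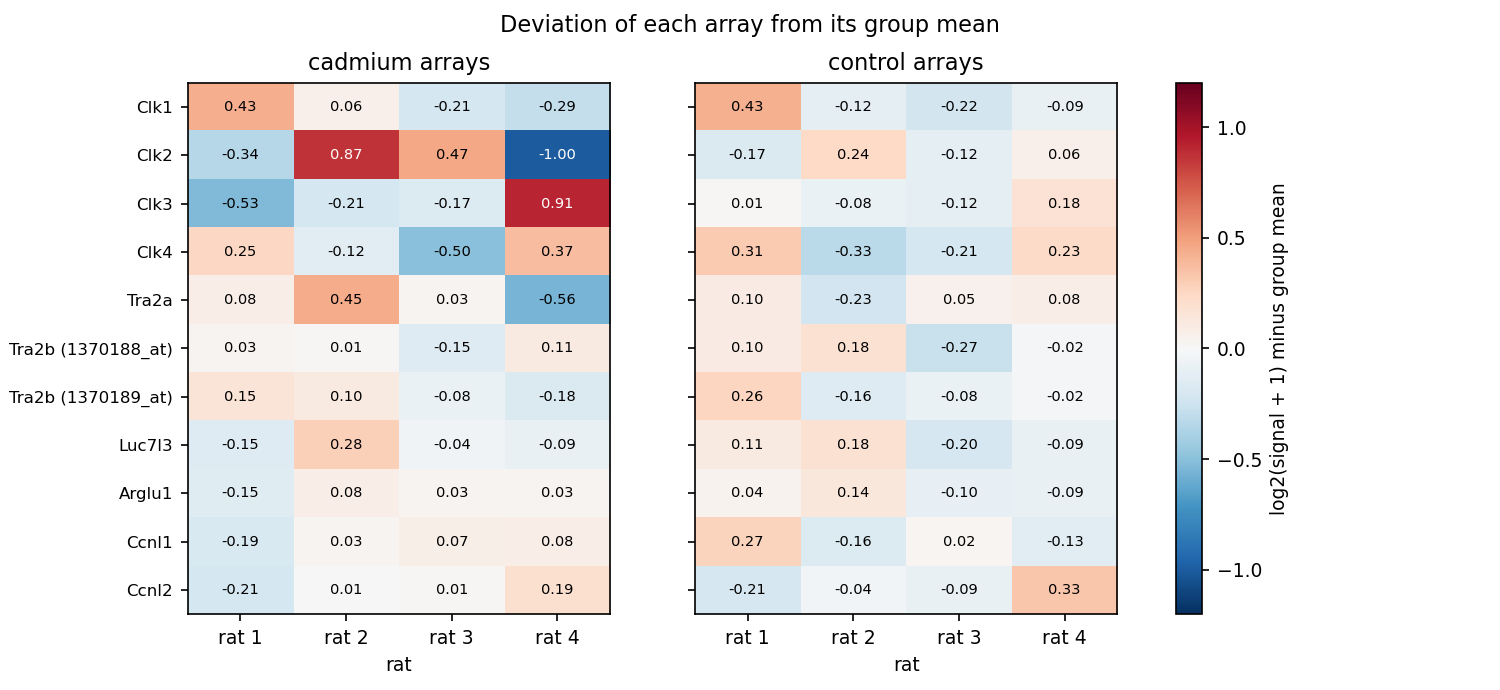
Deviation of log2(signal + 1) from the mean of its group for each member probe set (rows) in each rat (columns), cadmium arrays on the left and control arrays on the right. Red is above and blue below the group mean. Clk1 was high in rat 1 in both groups, and the strongest colours are those of Clk2 and Clk3 on the cadmium array of rat 4.

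The genes whose log2 signal followed Clk1 and Ccnl1 most closely over the 8 arrays were listed as a description, since the arrays fall into 2 treatment groups and any gene with an even response correlates with others. For Clk1 they were Crcp (Pearson r = 0.983), Rbm7 (0.974), Utp3 (0.965), Mafk (0.961) and Alas1 (0.956). For Ccnl1 they were Fosl1 (0.997), Klf6 (0.996), Zfand2a (0.995), Hspa1a (0.992) and Homer1 (0.991). When deviations from the group means were compared instead, the lists were different: Toe1 (0.982), Lonp1 (0.973), Efna1 (0.968), Gpd1 (0.968) and Adprm (0.962) for Clk1, and Fbxo38 (0.980), Ctnnd1 (0.947), Stk40 (0.947), Slc40a1 (0.944) and Dync2i1 (0.940) for Ccnl1. These too are only a description, as the highest of many correlations over 8 arrays. The deviations of Clk1 were largest in rat 1, at 0.43 in both groups.

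Genes that work with the members were read on their brightest probe set in 4 lists of 64 genes, of which 54 were on the array and 49 were tested. Of these 49, 1 was higher, against 2.04% of all 7099 tested genes, 1 was lower, against 1.31%, and 18 had an unadjusted p under 0.05 in either direction, against 16.3% of all tested genes. Under the replicate block, 1 was higher, against 2.73%, and 2 were lower, against 2.21%. Their median log2 change was -0.09, against -0.06 over all tested genes.

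SR proteins are the main substrates of CLK kinases. Of the 7 tested, Srsf6, which binds exonic enhancers, fell and the other 6 did not pass, with a median log2 change of -0.29. Srsf6 had signals of 1223.6, 1198.7, 1025.5 and 1279.8 with cadmium, against 1797.7, 1765.9, 1824.1 and 2089.1 in controls (1372075_at), with no overlap. Its log2 change was -0.66 ± 0.11 (limma adjusted p = 0.00586), lower in 4 of 4 rats. A dimmer probe set of Srsf6 had a log2 change of -0.70 ± 0.16 (limma adjusted p = 0.0367). That second call was lost with the rat as a replicate block (limma adjusted p = 0.0561), without the filter (0.0752), after quantile normalization (0.0642), after median centring (0.0653), within each chip lot, and with any 1 array or rat left out except cadmium replicate 3 and rat 3. The call of 1372075_at ended without rat 2 (limma adjusted p = 0.0615) or rat 3 (limma adjusted p = 0.0509) and within each lot (log2 changes -0.77 in lot 1 and -0.56 in lot 2).

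Of 22 tested partners with repeat domains, Rsrc2, an arginine and serine rich coiled-coil protein, rose and the other 21 did not pass, with a median of 0.04. Rsrc2 had signals of 1131.0, 1014.0, 773.2 and 1209.5 with cadmium, against 493.4, 353.7, 407.5 and 648.5 in controls (1373983_at). Every cadmium array lay above every control array, with a log2 change of 1.13 ± 0.20 (limma adjusted p = 0.0103) and a higher signal in 4 of 4 rats. Its call ended without rat 1 (limma adjusted p = 0.0741) or rat 2 (limma adjusted p = 0.103) and within lot 1 (log2 change 0.91), not within lot 2 (1.36). Probe sets of Rbm39, a splicing coactivator, disagreed, and the gene is named here after its values were seen. The brightest (1398993_at) had a log2 change of 0.33 ± 0.10 (limma adjusted p = 0.128), and 1399101_at had 0.37 ± 0.16 (limma adjusted p = 0.288). Lower with cadmium were 1379737_a_at, at -0.51 ± 0.25 (limma adjusted p = 0.361), and 1381967_at, at -1.71 ± 0.22 (limma adjusted p = 0.00135). Only 1381967_at passed, a call that ended within lot 2 (-1.59).

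Among 10 tested kinases and phosphatases that act on SR proteins, none passed in limma (3 had an unadjusted p under 0.05, against 16.3% of all tested genes; 1, Ppp1cc, passed with the rat as a replicate block), and the median was -0.08. Ppp1ca and Ppp1cc, catalytic subunits of protein phosphatase 1 and the brightest of the list, had log2 changes of -0.11 ± 0.11 (limma adjusted p = 0.715) and -0.38 ± 0.10 (limma adjusted p = 0.0691; with the block, 0.0364). Among 10 tested transcription cyclins and their kinases, none passed in limma with or without the block (4 had an unadjusted p under 0.05, against 16.3% of all tested genes), and the median was -0.09. The 2 brightest were Ccnh, cyclin H of the CDK-activating kinase, at 0.07 ± 0.14 (limma adjusted p = 0.859), and Ccnc, cyclin C of the Mediator kinase module, at -0.33 ± 0.13 (limma adjusted p = 0.258). Cdk11b, which encodes a partner kinase of the L cyclins, had a log2 change of -0.13 ± 0.11 (limma adjusted p = 0.647).

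**Figure D4:**
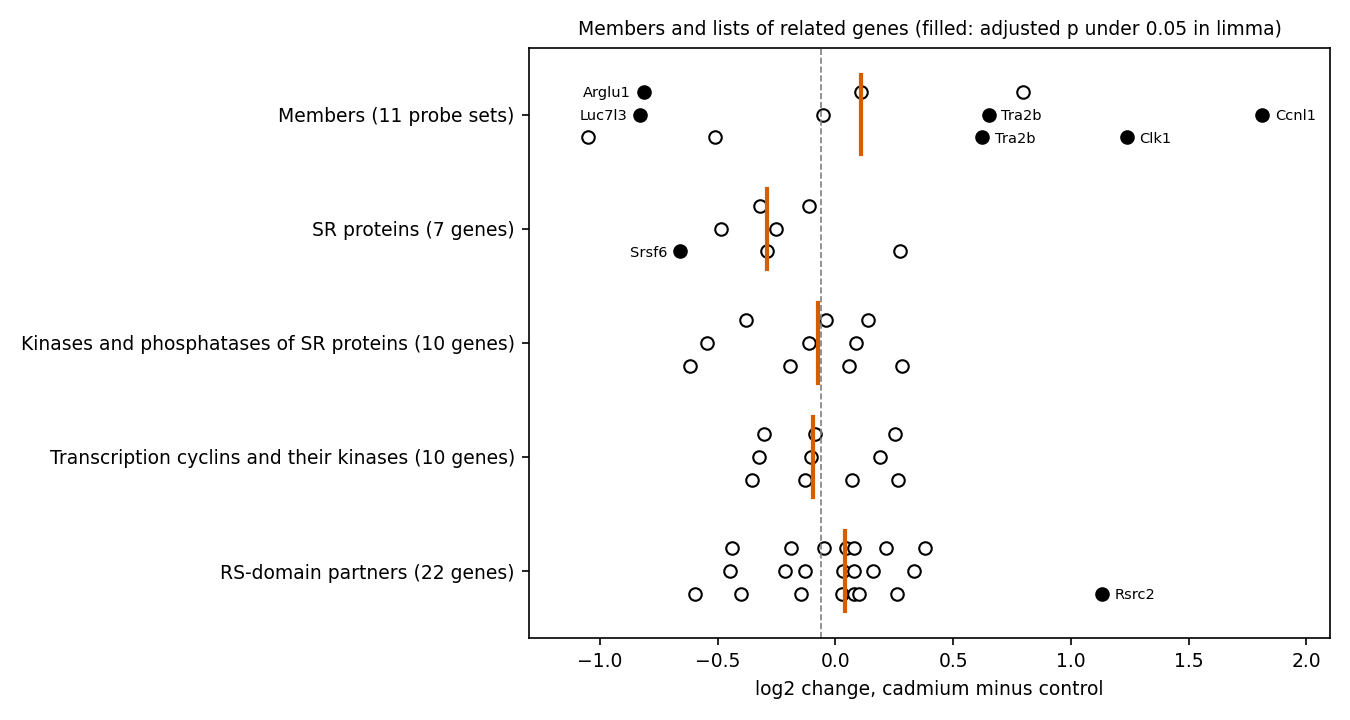
Log2 change between cadmium and control of the 11 member probe sets and of the tested genes in the 4 related lists, 1 point each. Filled points have an adjusted p under 0.05 in limma, orange bars are the medians and the dashed line is the median of all tested probe sets. Members reach from -1.05 to 1.81, and the related genes from -0.66 to 1.13.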

How the data were processed

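The authors deposited 1 linear signal intensity per probe set and array, made with MAS5 per the submitters' processing notes. Its version and scaling target are not given in those notes. The trimmed mean (2% removed at each end) was between 500.1 and 500.2 on every array. Deposited settings files of the array software gave chip lot, fluidics module and scan day, per the file headers. The 4 scan days each hold the 2 arrays of 1 rat.

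Names of probe sets came from the platform annotation and were updated through the RefSeq gene table of GRCr8: of 15866, 12783 had 1 symbol, 312 several and 2771 none here. The 57 controls were left out. Where probe sets sit along a transcript is not used here.

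The scale was log2(signal + 1), which understates changes of dim probe sets, without further normalization. The dimmest 40% were left out, leaving 9519. The contrast of cadmium minus control was fitted in limma 3.58.1 under R 4.3.3 (lmFit, then eBayes with trend). Rat was a term only in the fit named as a replicate block and in the F test between rats. P-values were two-sided and adjusted over the whole tested table by the Benjamini-Hochberg method, with a threshold of 0.05. The brightest probe set stood for a related gene. Scripts were tested on simulated data. Arrays have no read depth; their number limits the precision. Cadmium and control samples were paired by the replicate number in their labels, which was taken as the number of the rat. Deviations from group means correlated at 0.35, 0.251, 0.475 and 0.196 within rats 1 to 4 and at most at -0.008 between rats. Subtracting group means in itself lowers the correlations between rats. Both arrays of a rat also share a scan day and a chip lot, so these values cannot test the pairing by animal.

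The members, lists, tests and alternatives were chosen with earlier results of these data known. All member probe sets are reported, with the genes past the threshold in each related list (up to 6), or else its 2 brightest, and the 5 genes most like Clk1 and Ccnl1 on each measure. Cdk11b was named outside this rule. Other settings tried were no filter or 60%, a pseudocount of 32, eBayes without trend, median centring, quantile normalization, rat or chip lot as a block, single lots, averaging the probe sets of a gene, and leaving out each array or rat.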

Additional observations from a re-analysis of the deposited data

Results flagged for a closer look

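In groups of 4 arrays, a signal far from the other 3 was found for 3 of the 22 combinations of member probe set and group; by chance about 1 in 20 groups is found. For Clk1 it was control replicate 1, at 1405 against 896.8 to 979.2 on the other control arrays. The same rat was also highest with cadmium, and without that control array the log2 change was 1.38, against 1.24 with all arrays.

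For Clk3 it was cadmium replicate 4, at 658.7 against 241.6 to 311.7 on the other cadmium arrays, and without it the log2 change was -0.36, against -0.05. For Tra2a it was control replicate 2, at 294.3 against 356.8 to 368.7 on the other control arrays, and without it the log2 change was 0.03, against 0.11. The causes were not tested.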

How the results depend on the processing

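All 11 member probe sets kept the direction of their change and their side of the threshold with a pseudocount of 32, without the filter and without a variance trend, as did the 10 tested with the 60% filter, which left out Clk2. With the rat as a replicate block, 5 members were higher and 3 lower (4 and 2 without it), and 2 related genes were lower in place of 1; no other call of a member changed under the block. Within chip lot 1 the counts were 1 higher and 0 lower for members and 0 and 0 for related genes. Within chip lot 2 they were 2 and 1 for members, and 0 related genes were lower. These fits rest on 2 rats each and had no rat term. With single arrays or rats left out, members higher ranged from 1 (without rat 2) to 5 (without cadmium replicate 3), with 2 without cadmium replicate 2, and members lower from 1 (without rat 1) to 2. Related genes higher ranged from 0 (without rat 1 or rat 2) to 1, related genes lower from 0 (without rat 2 or rat 3) to 2 (without cadmium replicate 4), and members that differed between rats from 0 to 1 (Clk1, without rat 4).

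Over all tested probe sets, 200 were higher and 136 lower. These counts were 272 and 218 with the replicate block, 40 and 7 within lot 1, 75 and 19 within lot 2, 206 and 89 after quantile normalization and 252 and 74 after median centring. With arrays or rats left out they lay between 79 and 188 and between 26 and 125.

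Clk3 turned positive after quantile normalization (0.0194), after median centring (0.0263) and within lot 1 (0.289), and lay between -0.3557 and 0.1301 with arrays or rats left out. Tra2a turned negative within lot 1 (-0.2212) and lay between -0.1159 and 0.3211 with arrays or rats left out. Ccnh turned negative within lot 2 (-0.0163) and lay between -0.0165 and 0.1714. None of the 3 passed in any fit. The cause was not tested.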
